A study of Mus musculus with 8 samples.

Results

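The 56 genes described here encode the machinery of mitosis, the stage at which a cell divides its copied chromosomes between daughter cells, and of cytokinesis, the final split of the cell. They were listed by symbol and matched to the count table through the GENCODE M21 gene annotation. All 56 were found among the 49315 genes of the table, and all 56 passed the filter on low counts that left 13051 genes for testing. The measurements were RNA-Seq counts from mouse bone marrow-derived macrophages (BMDMs), primary macrophages grown from the marrow of C57BL/6 mice with macrophage colony-stimulating factor at 10 ng per ml. Both groups of cultures received a gapmeR, a short antisense oligonucleotide that recruits RNase H to cut its target RNA, at 25 nM by the sample labels. In 4 libraries (replicates 2, 5, 6 and 7) this was a negative control gapmeR, and in 4 libraries (replicates 9, 11, 13 and 15) it was a gapmeR against the macrophage long noncoding RNA MAARS. The labels record neither a separate mouse nor a separate culture for each library, so the p-values below measure only the spread between these libraries, which may be technical.

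Mitosis is started by the kinase CDK1 with its cyclin partners. Polo and Aurora kinases then build the spindle, kinetochores tie each chromosome to spindle microtubules, and a checkpoint delays separation until every chromosome is attached. The anaphase-promoting complex (APC/C) finally marks cyclin B and securin for destruction, which releases the enzyme separase to cut the sister chromatids apart. Most of the genes are transcribed in late S phase, G2 and mitosis, so their RNA is abundant in dividing cells and scarce in resting ones, and macrophages grown with macrophage colony-stimulating factor divide in culture. In RNA from a whole culture, fewer dividing cells and less RNA per dividing cell cannot be told apart.

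Many genes of this kind carry 2 short elements close to their transcription start. One is the cell cycle genes homology region, which is bound by the DREAM and MuvB complexes, and the other is the CCAAT box, which is bound by NF-Y. The promoters of 7 members are shown because they cover CDK1, its cyclin, a motor, partners of the APC/C, topoisomerase and the single member that fell. Each is a run of 120 bases of the strand on which the gene is transcribed, ending just before the RefSeq start in build GRCm38.p6. Capitals mark the homology region (TTTGAA or TTTAAA, or TTCAAA on the other strand) and the NF-Y box (CCAAT, or ATTGG on the other strand).
Cdk1, chr10:69352913-69353032, minus strand: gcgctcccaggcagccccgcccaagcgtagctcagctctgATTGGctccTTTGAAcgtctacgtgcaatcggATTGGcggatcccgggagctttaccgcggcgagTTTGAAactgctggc
Ccnb1, chr13:100786487-100786606, minus strand: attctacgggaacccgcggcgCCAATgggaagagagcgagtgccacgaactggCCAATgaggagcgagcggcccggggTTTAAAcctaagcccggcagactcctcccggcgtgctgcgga
Cdc20, chr4:118437344-118437463, minus strand: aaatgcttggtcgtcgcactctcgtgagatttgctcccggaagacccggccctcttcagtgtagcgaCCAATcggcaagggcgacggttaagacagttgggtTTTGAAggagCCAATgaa
Ube2c, chr2:164769809-164769928, plus strand: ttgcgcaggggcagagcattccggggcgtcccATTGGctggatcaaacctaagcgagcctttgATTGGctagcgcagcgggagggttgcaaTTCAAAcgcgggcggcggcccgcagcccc
Top2a, chr11:99024190-99024309, minus strand: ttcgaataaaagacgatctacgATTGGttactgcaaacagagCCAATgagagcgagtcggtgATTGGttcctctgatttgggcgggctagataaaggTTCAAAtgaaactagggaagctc
Kif11, chr19:37376262-37376381, plus strand: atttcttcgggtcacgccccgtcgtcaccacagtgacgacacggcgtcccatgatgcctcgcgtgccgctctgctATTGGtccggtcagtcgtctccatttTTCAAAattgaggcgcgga
Pttg1, chr11:43425982-43426101, minus strand: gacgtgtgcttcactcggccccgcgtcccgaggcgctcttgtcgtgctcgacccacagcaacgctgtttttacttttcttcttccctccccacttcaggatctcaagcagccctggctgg
The Cdk1 stretch held 2 homology regions and 2 NF-Y boxes. Ccnb1, Cdc20 and Ube2c each had 1 region and 2 boxes, Top2a had 1 region and 3 boxes, and Kif11 had 1 of each. Neither element was present in the Pttg1 stretch. That stretch follows the RefSeq start, whereas the GENCODE gene on the minus strand reaches to 43426251. The Pttg1 stretch thus lies inside the GENCODE gene, and bases upstream of that annotated start are not shown. The stretches of Ccnb1, Cdk1, Ube2c and Cdc20 also lie in part inside their GENCODE genes. For Ccnb1, whose GENCODE gene reaches to 100786570, that part is the larger one and holds the marked TTTAAA.

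The knockdown itself was measured first. MAARS (Gm14461, ENSMUSG00000054510), a long intergenic noncoding RNA on the plus strand of chr2:78237547-78302230 in GRCm38, had 238, 296, 240 and 249 counts in control replicates 2, 5, 6 and 7. Its counts were 163, 161, 159 and 135 in MAARS gapmeR replicates 9, 11, 13 and 15. In CPM, the counts put on a common library size with TMM factors, this was 13.1 ± 1.36 (SD, n = 4) against 6.82 ± 0.845 (SD, n = 4), a log2 fold change of -0.95 (SE 0.112, adjusted p = 5.8e-05, from the quasi-likelihood test of edgeR and adjusted by Benjamini-Hochberg across all genes tested). Every MAARS gapmeR library lay below every control library (p = 0.0286 by a two-sided exact permutation test, which is the lowest p that 4 against 4 libraries can give).

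Library totals ran from 19287279 to 24541205 counts, and each of the MAARS gapmeR libraries was deeper than each of the control libraries. The macrophage identity of the cultures was checked against marker genes. Lyz2 was at 8048 to 11042 CPM with control gapmeR and at 11813 to 14677 CPM with MAARS gapmeR, and Adgre1 was at 1227 to 1382 CPM over all libraries, with a log2 fold change of 0.04 (adjusted p = 0.553). Of 8 macrophage markers, 5 rose and 2 fell, and the fall was greatest for the Fc receptor gene Fcgr1 (log2 fold change -2.09, adjusted p = 7.12e-06). Fibroblast genes were also present: the 7 markers summed to 460 to 1047 CPM in controls and 720 to 1237 CPM after knockdown, with Lum at or near 0 and no marker called. The 10 neutrophil markers summed to 73.8 to 214 CPM and 76.1 to 121 CPM, again with none called. Erythroid, mast cell and B cell markers summed to under 3 CPM in every library, and Cd3e, Cd3d, Cd3g and Cd8a were at or near 0. Among markers of other cells, Kdr (log2 fold change -1.54), Cd4 (-0.68) and Cd34 (-2.16) were lower after knockdown. The part of any of these cells in the results below was not tested.

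Most of the mitotic genes were higher after MAARS knockdown. With the adjusted p threshold set at 0.05, 49 of the 56 members rose, where 21.3% of all genes tested did, and 1 member, Pttg1, fell, where 24.0% did. Cdc25b, Bub3, Cenpk, Ndc80, Spc25 and Smc2 passed in neither direction. The median log2 fold change of the members was 0.82, against 0.01 over all genes tested, and 55 of 56 fold changes were above 0. A rise of at least 1.5-fold was called for 41 members, and of at least 2-fold for 12. The shares of all genes tested at these fold thresholds are not given here, so these counts have no background beside them. In 36 members each MAARS gapmeR library exceeded each control library, an arrangement found in 19.3% of all genes tested, and in 1 member (22.8% of all genes) the order was the opposite. The plot of fold changes by role group shows how far the members departed from 0 and where the exceptions sit.

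**Figure D1:**
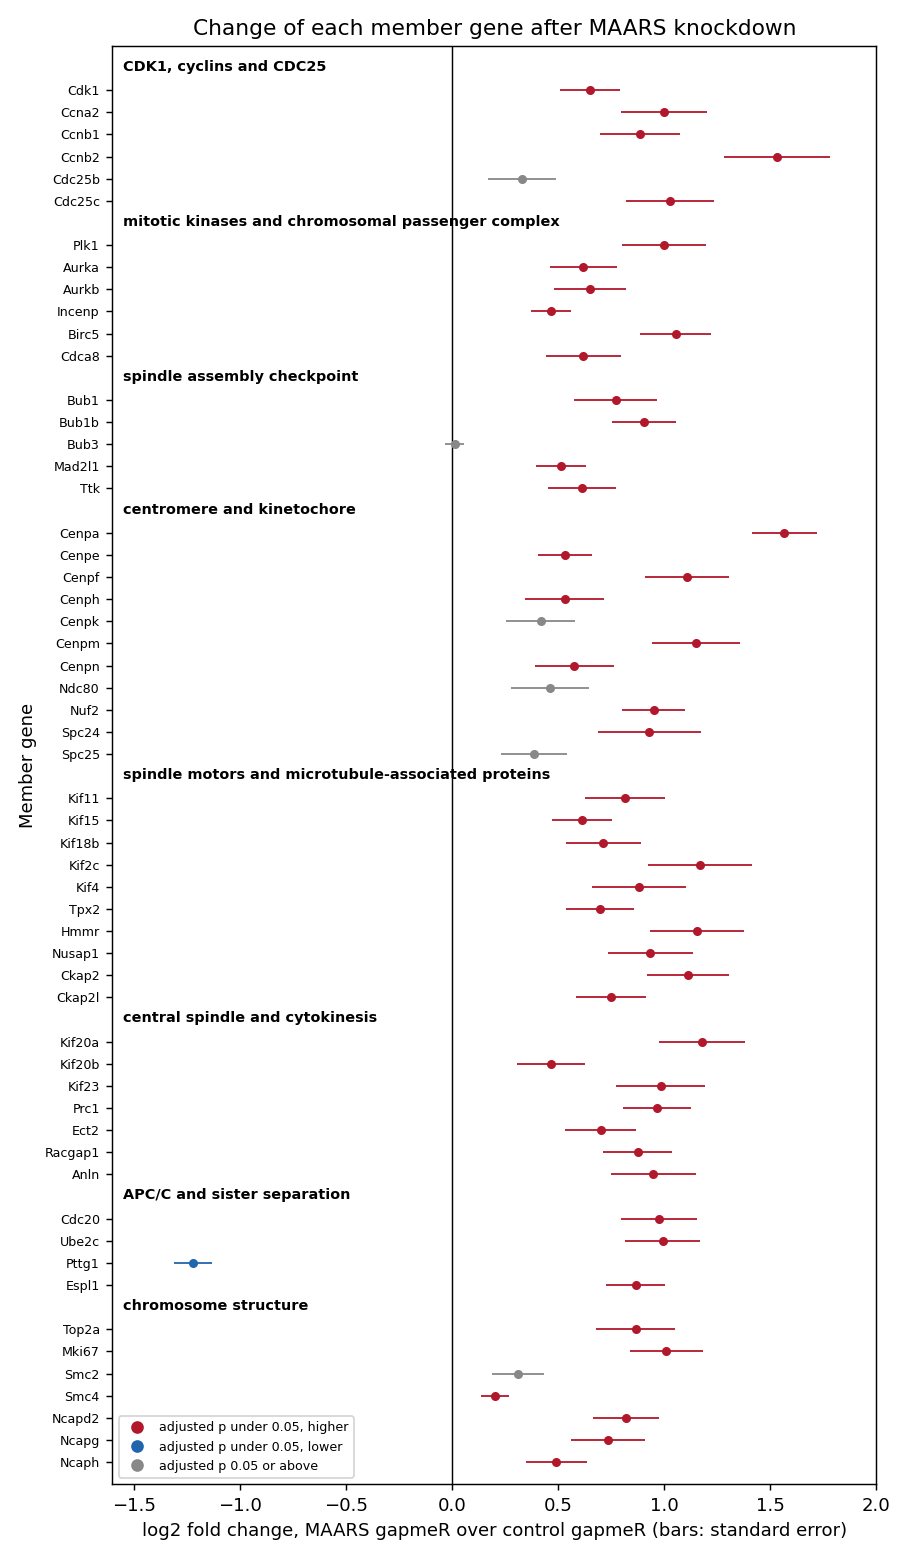
Log2 fold change of each of the 56 members, MAARS gapmeR over control gapmeR (x axis), with bars for the standard error from edgeR, grouped by role (y axis). Red points (49) passed an adjusted p of 0.05 upwards, the blue point is Pttg1 at -1.22, and grey points (6) did not pass.

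The control libraries were far less alike than the MAARS gapmeR libraries for these genes. The median coefficient of variation of a member was 29.8% among controls and 10.5% among MAARS gapmeR libraries, against 8.29% and 7.65% for all genes tested. Control replicate 2 was the highest control for 52 of the 56 members and control replicate 6 the lowest for 44. Per library, the median member stood at 0.54, 0.08, -0.39 and -0.21 in control replicates 2, 5, 6 and 7, as a log2 ratio to the control mean. The same median was 0.69, 1.00, 0.86 and 0.79 in MAARS gapmeR replicates 9, 11, 13 and 15. Control replicate 2 thus came close to the lowest MAARS gapmeR library, replicate 9, which was the lowest of its group for 39 members. MAARS gapmeR replicate 11, the deepest library of all, was the highest of its group for 50 members.

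The same order was seen in the summed counts of the members. All members together made up 0.219%, 0.159%, 0.122% and 0.140% of all counts on genes in control replicates 2, 5, 6 and 7. They made up 0.253%, 0.304%, 0.276% and 0.271% in MAARS gapmeR replicates 9, 11, 13 and 15. Groups overlapped for 19 members, of which 13 were nevertheless called higher. Of all genes tested, 19.3% were fully separated upwards and 22.8% downwards, and the rest overlapped. Control replicate 2 accounted for most of the overlap among the members. Without it, 53 members had all MAARS gapmeR libraries above all remaining controls, where 22.1% of all genes did. In that fit 54 members were called higher, where 20.4% of all genes in the fit were. The median log2 fold change was 1.03 for the members and 0.02 for all genes. Replicate 2 was picked as the highest control for most members, so leaving it out favours separation and larger fold changes. It was not picked that way for all genes, so neither the 22.1% nor the 20.4% is a matched background.

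**Figure D2:**
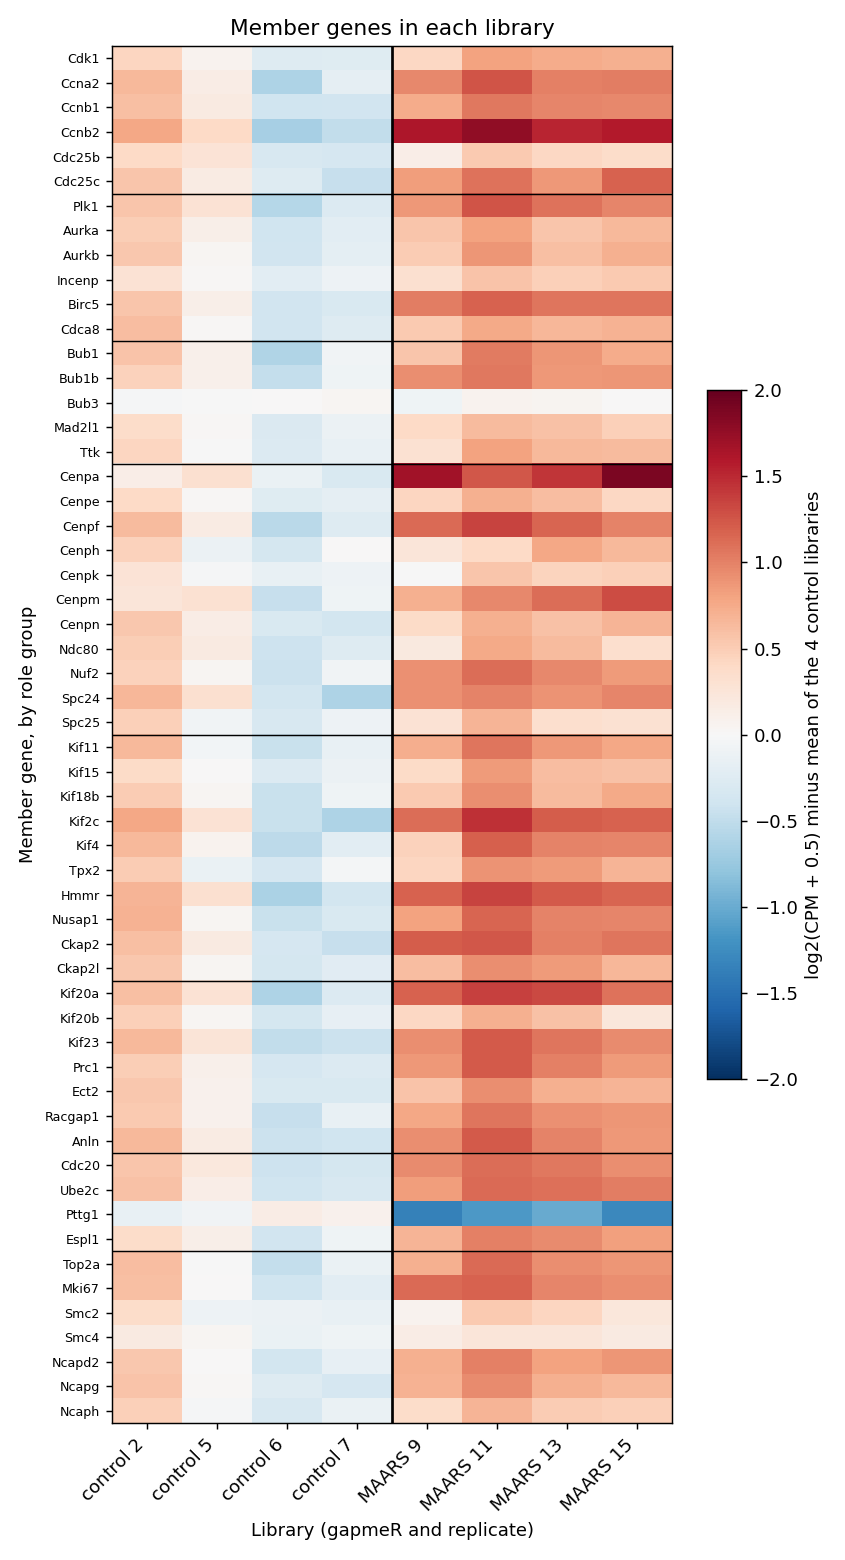
Heat map of the 56 members (rows, separated into the 8 role groups) in the 8 libraries (columns), coloured by log2(CPM + 0.5) minus the mean of the 4 control libraries. Control replicate 2 is red for most members, control replicates 6 and 7 are blue, the MAARS gapmeR libraries are darker red, and the Pttg1 row is reversed.

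The start of mitosis depends on CDK1, its cyclins, and the CDC25 phosphatases that remove the inhibitory phosphates from CDK1. Of the 6 genes, 5 rose and none fell, with a median log2 fold change of 0.94. Ccnb2, a B-type cyclin, was at 29.7, 22.8, 10.7 and 12.1 CPM in control replicates 2, 5, 6 and 7, and at 54.2, 60.4, 50.6 and 52.96 CPM in MAARS gapmeR replicates 9, 11, 13 and 15. The same order of libraries is kept throughout. Its log2 fold change of 1.53 (SE 0.249, adjusted p = 0.000499) was the greatest of the group, and the groups were well apart although controls differed among themselves by more than 2-fold. Cdk1, the kinase, was measured at 48.9, 37.8, 29.96 and 30.4 CPM in controls and 48.3, 63.3, 60.3 and 58.99 CPM after knockdown. Control replicate 2 lay just above the lowest MAARS gapmeR library, so the groups overlapped, and the log2 fold change was 0.65 (SE 0.142, adjusted p = 0.00323). The exact permutation test gave p = 0.0571 for Cdk1. Among all members called higher despite overlap, that test gave p from 0.0571 to 0.0857, the latter for Kif20b among others.

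Cyclin A, which acts in S phase and early mitosis, is encoded by Ccna2. It was at 59.7, 41.8, 24.5 and 33.1 CPM in controls and 74.1, 90.5, 76.4 and 77.3 CPM in MAARS gapmeR libraries, a log2 fold change of 1.00 (SE 0.202, adjusted p = 0.00204). For Ccnb1, the main cyclin of mitotic entry, the values were 38.6, 28.5, 18.9 and 19.3 CPM and 42.4, 53.1, 49.9 and 49.6 CPM (log2 fold change 0.89, SE 0.188, adjusted p = 0.00274). Neither gene had overlapping groups, though the highest control, replicate 2, was close to the lowest MAARS gapmeR library for Ccnb1. Cdc25c, a phosphatase of G2 and mitosis, rose by a log2 fold change of 1.03 at a low level (3.94 ± 1.42 against 8.03 ± 0.986 CPM, SD, n = 4). Its relative Cdc25b did not pass: 44.7, 41.1, 27.1 and 26.8 CPM in controls overlapped widely with 37.1, 49.3, 45.3 and 43.9 CPM after knockdown, and the log2 fold change of 0.33 had an adjusted p of 0.110 by edgeR.

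All 6 genes for mitotic kinases and the chromosomal passenger complex rose, with a median log2 fold change of 0.64. Plk1, the Polo kinase, rose by 1.00 (SE 0.198) and Aurka, the Aurora kinase of spindle poles, by 0.62 (SE 0.159) on the log2 scale. The other 4 genes encode the passenger complex, in which the kinase Aurora B (Aurkb) is held at centromeres by Incenp, survivin (Birc5) and borealin (Cdca8). Birc5 was at 26.1, 19.1, 13.3 and 14.1 CPM in controls and 35.9, 40.4, 37.1 and 37.4 CPM in the MAARS gapmeR libraries, with no overlap and with MAARS gapmeR values within 5 CPM of each other (log2 fold change 1.06, SE 0.168, adjusted p = 0.000427). Aurkb was at 22.6, 15.7, 11.6 and 13.4 CPM and 21.9, 28.6, 23.5 and 25.4 CPM (log2 fold change 0.65, SE 0.170, adjusted p = 0.00902). Cdca8 was at 35.7, 23.3, 17.5 and 19.2 CPM and 33.3, 39.4, 36.7 and 37.7 CPM (log2 fold change 0.62, SE 0.178, adjusted p = 0.0146). In both of these, control replicate 2 alone stood within the range of the knockdown libraries. Incenp, the scaffold, had the smallest rise of the complex, 0.47 (SE 0.0955, adjusted p = 0.00216), with no overlap.

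The spindle assembly checkpoint holds back the APC/C until all kinetochores are attached. Of its 5 genes, 4 rose and the fifth, Bub3, did not pass. Bub1b, which encodes the checkpoint protein BUBR1, was at 36.9, 28.5, 18.98 and 25.00 CPM with control gapmeR and 51.2, 55.8, 48.8 and 49.4 CPM with MAARS gapmeR, fully separated (log2 fold change 0.91, SE 0.150, adjusted p = 0.000560). Bub3, a partner shared by BUB1 and BUBR1, was at 88.4, 88.8, 90.2 and 91.8 CPM and 84.4, 93.9, 93.6 and 90.3 CPM. These values lay within 10 CPM of each other over all 8 libraries, and neither control replicate 2 nor MAARS gapmeR replicate 11 stood out as it did for most members (log2 fold change 0.01, SE 0.0459, adjusted p = 0.844, below 0 with offsets for gene length and GC content and without MAARS gapmeR replicate 11 or 13). The checkpoint kinases Bub1 (0.77, SE 0.195) and Ttk (0.61, SE 0.162) rose on the log2 scale with control replicate 2 overlapping the lowest MAARS gapmeR library, and Mad2l1 (0.51, SE 0.117) rose with none.

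**Figure D3:**
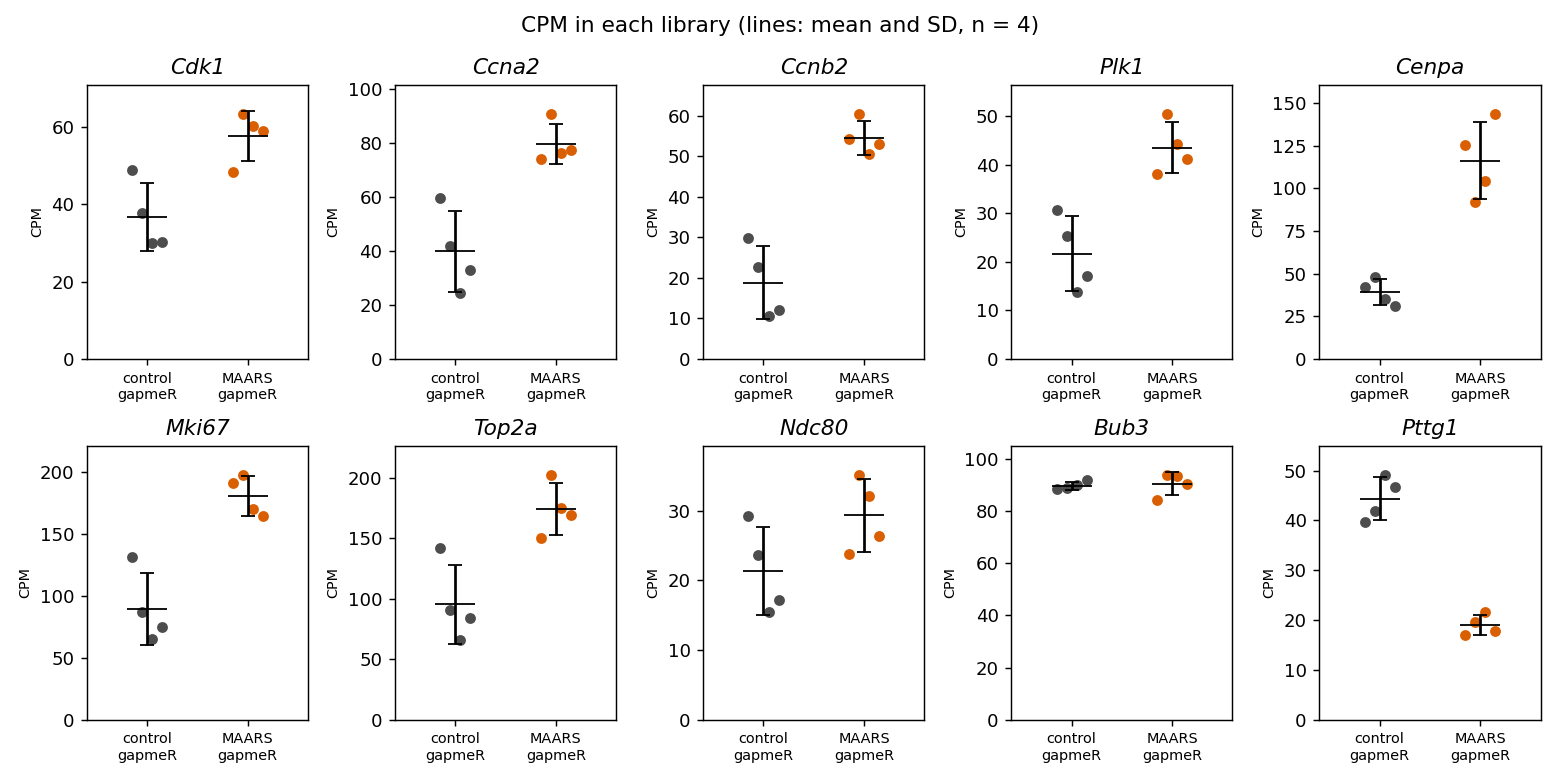
CPM (y axis, from 0) of 10 members in the 4 control gapmeR (grey) and 4 MAARS gapmeR (orange) libraries, with lines for the mean and SD. Cdk1 overlaps at control replicate 2, Ccna2, Ccnb2, Plk1, Cenpa, Mki67 and Top2a are separated upwards, Ndc80 overlaps, Bub3 is level at about 90 CPM, and Pttg1 is separated downwards.

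Centromere and kinetochore genes changed unevenly: 8 of 11 rose, 3 did not pass, and the log2 fold changes ran from 0.39 to 1.57. Cenpa, the histone H3 variant that marks centromeres, was at 42.4, 48.2, 35.05 and 31.2 CPM in controls and 125, 91.9, 105 and 143 CPM after knockdown. With 39.2 ± 7.59 against 116 ± 22.7 CPM (SD, n = 4), its log2 fold change of 1.57 (SE 0.152, adjusted p = 1.54e-05) was the largest rise among the members. Cenpa also departed from the common order of libraries, since its highest values were in MAARS gapmeR replicates 15 and 9 and its highest control was replicate 5. Under the 17 alternatives that were run, each library left out included, the log2 fold change of Cenpa was between 1.45 and 1.68.

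The outer kinetochore binds microtubules through the NDC80 complex, whose 4 subunits did not all pass. Nuf2 rose by 0.95 (SE 0.149, adjusted p = 0.000396) and Spc24 by 0.93 (SE 0.245, adjusted p = 0.00926) on the log2 scale, both without overlap. Ndc80 was at 29.2, 23.6, 15.4 and 17.2 CPM in controls and 23.8, 35.1, 32.2 and 26.4 CPM in MAARS gapmeR libraries. Control replicate 2 exceeded 2 of the 4 knockdown libraries, and the log2 fold change of Ndc80 was 0.46 (SE 0.185, adjusted p = 0.0611 by edgeR). It passed with DESeq2 (adjusted p = 0.0335), with limma-voom (adjusted p = 0.044) and without control replicate 2 (log2 fold change 0.65, adjusted p = 0.0069), and the adjusted p ran from 0.00565 to 0.164 over the alternatives. The log2 fold change of Spc25 was 0.39 (SE 0.155, adjusted p = 0.0609), and it became 0.59 (adjusted p = 0.00156, within a range of 0.00156 to 0.174 over the alternatives) without that library. Differences between the fold changes of the subunits were not tested.

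Among the remaining kinetochore genes, Cenpf (1.11, SE 0.198), which encodes a large protein of the outer kinetochore, and Cenpm (1.15, SE 0.209) rose most on the log2 scale, both without overlap. Cenpm, like Cenph, Cenpk and Cenpn, belongs to the constitutive network that sits on centromeric chromatin. Cenpn rose by 0.58 (adjusted p = 0.0254) and Cenph by 0.53 (adjusted p = 0.0377), both with overlap. Cenpn lost its call without MAARS gapmeR replicate 11 or 15 or control replicate 6 or 7 (highest adjusted p of 0.0711 by edgeR), and Cenph without MAARS gapmeR replicate 13 or 15 or control replicate 5, 6 or 7 (highest adjusted p of 0.104). Cenpk, the member with the lowest level per kilobase of exon, did not pass (0.42, SE 0.164, adjusted p = 0.0565). Cenpe, a kinesin that carries chromosomes to the spindle equator, rose by 0.53 (SE 0.125) without overlap.

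All 10 genes for spindle motors and microtubule-associated proteins rose, with log2 fold changes from 0.61 to 1.17. Kif11, the motor that pushes the spindle poles apart, was at 44.2, 26.8, 20.3 and 25.05 CPM in controls and 46.7, 59.4, 51.1 and 47.8 CPM in MAARS gapmeR libraries. Control replicate 2 stood well above the other 3 controls and only just under the lowest knockdown library (log2 fold change 0.82, SE 0.188, adjusted p = 0.00449). Ckap2, a microtubule-binding protein of the spindle, was at 14.4, 10.6, 7.30 and 6.63 CPM and 22.2, 22.7, 19.3 and 19.98 CPM, without overlap (log2 fold change 1.11, SE 0.194, adjusted p = 0.000792). Kif4, a chromosome-bound motor, had the weakest support of the group: 23.9, 15.9, 10.4 and 13.01 CPM in controls and 20.9, 35.1, 30.6 and 30.1 CPM after knockdown, where MAARS gapmeR replicate 9 fell below control replicate 2 (log2 fold change 0.88, SE 0.222, adjusted p = 0.00722).

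Kif2c, which takes microtubules apart at centromeres, had the greatest rise among the motors (1.17, SE 0.247, on the log2 scale). Hmmr, which acts at spindle poles, rose by 1.15 (SE 0.220) and Nusap1, which bundles spindle microtubules near chromosomes, by 0.94 (SE 0.201). Neither overlapped between groups, nor did Kif18b (0.71, SE 0.176) and Ckap2l (0.75, SE 0.165). Kif15, a motor that can share the work of KIF11, rose by 0.61 (SE 0.142) and the Aurora A activator Tpx2 by 0.70 (SE 0.159), and both overlapped because of control replicate 2.

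The central spindle and cytokinesis genes, which position and drive the closing of the cell between the separated chromosomes, rose in 7 of 7 cases with a median log2 fold change of 0.95. Prc1, the microtubule crosslinker that forms the central spindle, was at 44.4, 33.6, 24.7 and 25.8 CPM with control gapmeR and 57.4, 74.01, 63.2 and 56.6 CPM with MAARS gapmeR (log2 fold change 0.97, SE 0.162, adjusted p = 0.000608). Kif23 and Racgap1 encode the 2 proteins of centralspindlin. Kif23 was at 45.7, 34.95, 20.6 and 21.6 CPM and 56.00, 68.9, 61.5 and 56.5 CPM (log2 fold change 0.98, SE 0.208, adjusted p = 0.00272), and Racgap1 rose by 0.88 (SE 0.162) on the same scale. None of these 3 genes overlapped between groups.

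Kif20a, a central spindle motor, had the greatest rise of this group (1.18, SE 0.202, on the log2 scale). Anln, which encodes the contractile ring scaffold anillin, rose by 0.95 (SE 0.201) and Ect2, the exchange factor that activates RhoA at the cleavage site, by 0.70 (SE 0.167), all without overlap. Kif20b was the exception in strength: 38.1, 28.1, 21.4 and 24.2 CPM in controls met 36.4, 45.1, 41.2 and 31.9 CPM after knockdown, with control replicate 2 above 2 of the knockdown libraries (log2 fold change 0.47, SE 0.160, adjusted p = 0.0329). Its call was lost without MAARS gapmeR replicate 11 or 13, without control replicate 5, 6 or 7 and with a robust prior on the dispersion, and its highest adjusted p by edgeR under the alternatives was 0.0940.

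At the exit from mitosis the members moved in opposite directions. Pttg1, which encodes securin, the inhibitor and chaperone of separase, was at 39.7, 41.9, 49.1 and 46.8 CPM in controls and 17.03, 19.6, 21.7 and 17.9 CPM in MAARS gapmeR libraries. Every knockdown library was far below every control, and here the controls varied little (mean 44.4 ± 4.32 against 19.04 ± 2.06 CPM, SD, n = 4). The log2 fold change was -1.22 (SE 0.0894, adjusted p = 5.27e-06), the smallest p of all the members, and under the 17 alternatives the log2 fold change of Pttg1 lay between -1.29 and -1.13. Control replicate 2, highest for 52 members, was the lowest control for Pttg1. Espl1, which encodes separase, rose in contrast by 0.87 (SE 0.139, adjusted p = 0.000463), from 13.3 ± 2.98 to 24.2 ± 2.54 CPM (SD, n = 4).

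The other genes of this group act together with the APC/C. Cdc20, its mitotic activator, was at 24.6, 19.2, 12.2 and 12.8 CPM in controls and 32.2, 36.6, 34.8 and 31.9 CPM after knockdown (log2 fold change 0.98, SE 0.180, adjusted p = 0.00113). Ube2c, the ubiquitin-conjugating enzyme that starts ubiquitin chains on APC/C substrates, was at 29.5, 21.6, 14.8 and 15.6 CPM and 35.4, 43.6, 42.8 and 40.3 CPM (log2 fold change 0.99, SE 0.178, adjusted p = 0.000946). Both were about 2-fold higher with no overlap between groups, so that of the genes tied to sister separation 3 rose and only securin fell.

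The last group shapes chromosomes for division, and 6 of its 7 genes rose. Mki67, the gene of the proliferation antigen Ki-67 that coats mitotic chromosomes, was at 131, 87.2, 65.6 and 74.9 CPM in controls and 192, 198, 170.1 and 165 CPM in MAARS gapmeR libraries (log2 fold change 1.01, SE 0.172, adjusted p = 0.000676). Top2a, the topoisomerase that untangles sister chromatids, was at 142, 91.1, 65.8 and 83.9 CPM and 150.2, 202, 175 and 169.7 CPM (log2 fold change 0.87, SE 0.186, adjusted p = 0.00300). Both were free of overlap, and for Top2a control replicate 2 came within 10 CPM of the lowest knockdown library.

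Condensin, the ring that compacts mitotic chromosomes, moved unevenly. Its condensin I subunits Ncapd2 (0.82, SE 0.157), Ncapg (0.74, SE 0.174) and Ncaph (0.49, SE 0.144) rose on the log2 scale, Ncaph with overlap. The ATPase subunits shared with condensin II had smaller values. Smc2 was at 81.4, 58.9, 58.2 and 57.2 CPM in controls and 66.6, 91.3, 85.1 and 74.2 CPM after knockdown, where control replicate 2 exceeded 2 of the 4 knockdown libraries and the log2 fold change of Smc2 was 0.31 (SE 0.123, adjusted p = 0.0577 by edgeR). Without control replicate 2 it was 0.45 (adjusted p = 0.00271, within a range of 0.00271 to 0.159 over the alternatives). Smc4 rose by 0.20 (SE 0.0664, adjusted p = 0.0281), the smallest called rise among the members, and this call was lost without MAARS gapmeR replicate 11 or 13 or control replicate 6 or 7, with a highest adjusted p of 0.0811 by edgeR. Per kilobase of exon, Smc4 was the most abundant member in controls (22.6 CPM per kb), followed closely by Pttg1 (22.2), and after knockdown Ccnb2 was (35.6, against 12.3 in controls).

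Reads of some members cannot be assigned with certainty, because the strand setting of the counting is not given in the sources used here. Exons of 14 members share bases with a gene on the opposite strand, and for 7 of them more than 10% of exonic bases do: Kif20a (29.3%), Ube2c (22.8%), Kif4 (15.1%), Ncapg (13.4%), Cdc25c (12.7%), Ccna2 (12.5%) and Prc1 (11.1%). Pseudogene copies of Ccnb1 and Kif4 are annotated as well, and the treatment of reads that map to several places is likewise not given. Cenpa, Pttg1, Cdk1, Ccnb2, Top2a and Mki67 share no exonic base with an opposite-strand gene.

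To describe how far the rise extended beyond the members, 5 lists of other cell cycle genes were counted. Like the members, the lists were chosen with earlier results of these data known, so they are not an independent check. The members and these lists have no gene in common. Of 80 other mitotic genes, 44 rose and 4 fell, where 21.3% of all genes tested rose and 24.0% fell, and the median log2 fold change was 0.40. The 3 with the smallest p were Ska1, a kinetochore protein that follows microtubule ends (log2 fold change 1.35, adjusted p = 2.06e-05), Spag5, a spindle protein (1.05, adjusted p = 8.92e-05), and Cks2, a small partner of CDK1 (0.85, adjusted p = 0.000176). The 4 that fell were Ncapg2, a condensin II subunit (-0.53), Lin9, a MuvB subunit (-0.41), Spdl1, which recruits dynein to kinetochores (-0.39), and Zwint, a kinetochore protein (-0.14). Foxm1, a transcription factor of G2 and mitotic genes that was singled out after its values were seen, rose by 0.78 (SE 0.154, adjusted p = 0.0018).

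The stable subunits of the APC/C, which are expressed through the whole cell cycle, were counted together with the activator Fzr1 and were mixed. Of 15 genes, 7 rose and 2 fell (Anapc10, -0.38, and Anapc16, -0.24), with a median log2 fold change of 0.11, which is 46.7% and 13.3% against 21.3% and 24.0% of all genes tested. Those with the smallest p were Anapc2 (0.41), the alternative activator Fzr1 (0.47) and Anapc11 (0.54). Cohesin, which holds sister chromatids together until separase cuts it, had 3 of 10 genes higher and none lower with a median of 0.00, against 21.3% higher and 24.0% lower of all genes tested, and the 3 were Rad21, the subunit that separase cleaves (0.34), Stag2 (0.20) and Smc1a (0.15).

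DNA replication genes, transcribed at the preceding stage of the cycle, did not rise as a list. Of 55 genes, 4 rose and 8 fell, and the median log2 fold change was -0.06. These are 7.27% and 14.5% of the list, against 21.3% and 24.0% of all genes tested, so fewer than the background were called in either direction. The median standard error of the list was also larger, at 0.125 against 0.0839 over all genes tested. The smallest p belonged to 3 that fell, the replication factor C subunits Rfc2 (-0.46) and Rfc1 (-0.37) and the polymerase subunit Pold3 (-0.34). The 4 that rose were thymidine kinase Tk1 (0.94, adjusted p = 0.00204), the ribonucleotide reductase subunits Rrm2 (0.80, adjusted p = 0.00977) and Rrm1 (0.47, adjusted p = 0.0161), and Pola1 of the priming polymerase (0.45, adjusted p = 0.0347). The helicase gene Mcm2 and the clamp gene Pcna, named after their values were seen, had log2 fold changes of -0.14 (adjusted p = 0.513) and -0.11 (adjusted p = 0.368).

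Of 30 genes for G1 cyclins, CDKs, CDK inhibitors and their RB and E2F partners, 5 rose and 3 fell, below the 21.3% and 24.0% of all genes tested, with a median log2 fold change of 0.00. Rb1, the retinoblastoma protein gene (0.57), and Cdkn1b, which encodes the CDK inhibitor p27 (0.56), rose, as did Cdkn2c (0.79), E2f2 (0.49) and E2f7 (0.76). Cdkn1a, which encodes the inhibitor p21, fell by 0.58 on the log2 scale (adjusted p = 5.83e-05). The other 2 that fell were Ccnd1, a cyclin of G1 (-0.79, adjusted p = 0.0113), and Rbl1, which encodes the p107 subunit of DREAM (-0.32, adjusted p = 0.0271). Exons of Ccnd1 (23.4% of bases), Rfc2 (15.1%) and Rb1 (14.9%) overlap a gene on the opposite strand. The differences between the lists were not tested.

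The order of the control libraries was shared in part by these lists. The median gene ranged over 0.92 log2 units among the 4 controls for the members, 0.64 for the other mitotic genes, 0.40 for DNA replication, 0.13 for the G1 list and 0.02 for all genes tested. In control replicate 2 the median replication gene was also the highest of the controls, at 0.25. MAARS gapmeR replicate 9 had the lowest replication median of all libraries, at -0.31, while its median member, at 0.69, was still above every control. The mean difference between groups of these medians was 0.83 for the members, 0.42 for other mitotic genes, -0.08 for replication and 0.01 for the G1 list. For each of these 4 lists it was smaller than the range among the controls, and without control replicate 2 it was 1.01 for the members and 0.55 for other mitotic genes.

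**Figure D4:**
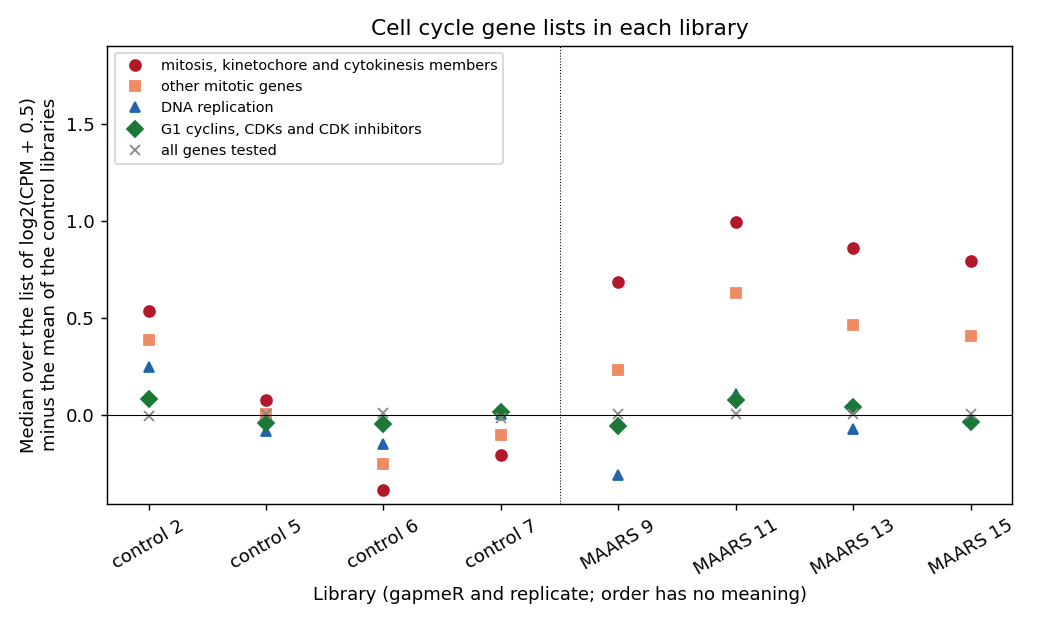
Median over each gene list of log2(CPM + 0.5) minus the mean of the 4 control libraries (y axis), in each library (x axis). The members lie between -0.39 and 0.54 in controls and between 0.69 and 1.00 in MAARS gapmeR libraries, other mitotic genes follow at smaller size, and the replication and G1 medians of the groups overlap.

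The promoter elements shown above were counted over the whole group as a description. RefSeq promoters in GRCm38.p6, from 250 bases before to 50 after the start, matched 48 of the 56 members, and Ccna2, Cdc25c, Aurkb, Incenp, Spc24, Tpx2, Kif20a and Smc4 were not matched. The homology region, searched as TTTGAA or TTTAAA on both strands, was found in 38 of the 48 (79.2%), against 30.6% of 27025 genes with a promoter and 22.8% of the 9831 tested genes that matched. The NF-Y box, searched as CCAAT on both strands, was found in 37 (77.1%), against 41.1% and 43.0%. Both elements occurred together in 32 (66.7%), against 12.2% and 9.32%. A homology region within 50 bases of the start was present in 33 (68.8%), against 9.54% of all genes with a promoter.

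Both elements together were found in 35.9% of 64 other mitotic genes, 17.8% of 45 replication genes and 19.0% of 21 genes of the G1 list. The differences between these shares were not tested. Among the members, Cdc25b, Bub1, Mad2l1, Cenph, Cenpk, Cenpm, Nuf2, Nusap1, Pttg1 and Ncaph had no homology region in the window. That set held genes that rose (Cenpm, Nuf2, Nusap1, Bub1, Mad2l1, Cenph and Ncaph), genes that did not pass (Cdc25b and Cenpk) and the gene that fell. For Pttg1 the whole window lay inside the GENCODE gene, so bases upstream of that annotated start were not searched. Of the matched members called higher, 34 of 41 (82.9%) had the region. Bub3, which did not pass the test, had both elements. A match says only that these letters are present in the window.

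**Figure D5:**
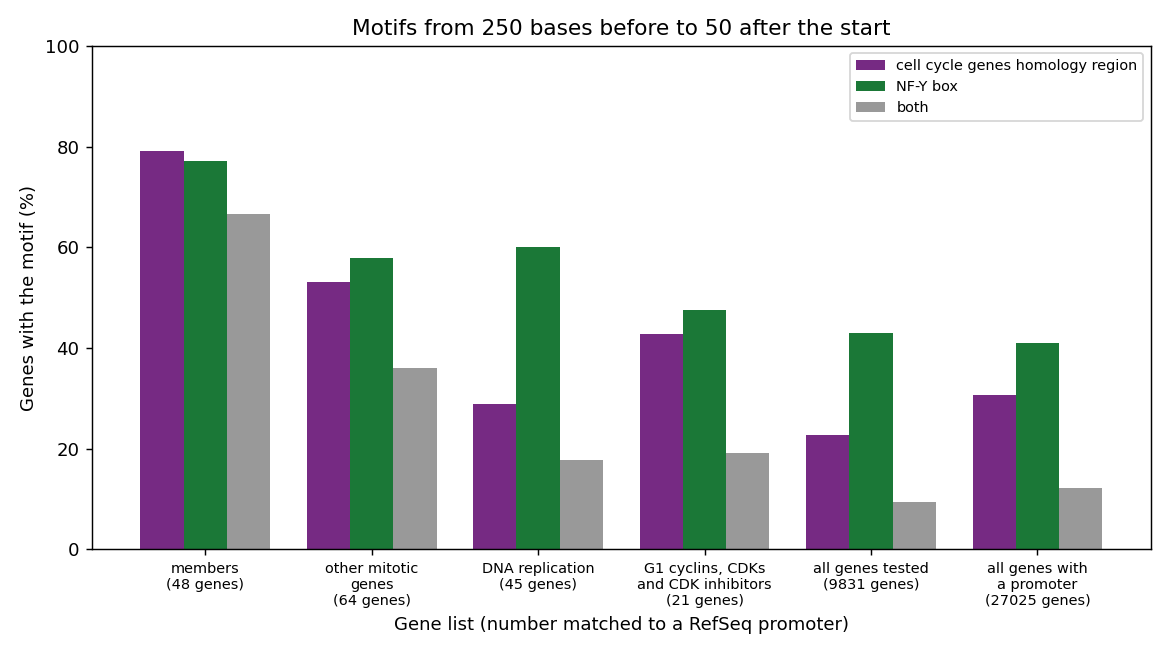
Share of genes (y axis, %) whose window from 250 bases before to 50 after the RefSeq start held the cell cycle genes homology region, the NF-Y box, or both, for 6 gene sets (x axis, with the number matched). The members reach 79.2%, 77.1% and 66.7%, all genes tested 22.8%, 43.0% and 9.32%.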

How the data were processed

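RNA-Seq of BMDMs was analysed from 4 control gapmeR and 4 MAARS gapmeR libraries, grouped by their labels. The labels give 25 nM of gapmeR and the study's methods 25 nmol. Per the study's methods and the submitters' processing notes, the authors made ribodepleted paired libraries, trimmed the reads (Trimmomatic 0.36), aligned them to mm10 (STAR 2.5.2b) and counted them per gene (featureCounts, Subread 1.5.2). The deposited values are raw counts, not normalized. The strand setting, the treatment of multi-mapping reads, and whether reads or fragments were counted are not given in the sources used here. Every sample column was used.

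Counts were tested with edgeR 4.0.16 in R 4.3.3: filterByExpr (minimum count 10, minimum total 15), TMM factors (0.955 to 1.03), glmQLFit and glmQLFTest, two-sided, and p-values were adjusted by Benjamini-Hochberg across 13051 genes. CPM were scaled by TMM, and medians per library used log2(CPM + 0.5). The standard error was |log2 fold change| over the square root of F. Library totals ran from 19287279 to 24541205 counts, and the members had 29 to 5087 counts per library. Replicates of a group differed beyond sampling noise (chi-square per gene 4.24 to 15.1). Positions came from GENCODE M21, and promoters from RefSeq on GRCm38.p6. The procedure was tested on simulated data.

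The members and the gene lists were chosen with earlier results of these data known. Every member was named, and values per library were printed for set members of each role group, for the smallest and largest p in each group, and for members that fell. Of the other lists, the 3 smallest p and the genes moving against most of their list were named. Alternatives were RLE and upper-quartile factors, DESeq2 1.42.0, limma-voom (limma 3.58.1), no filter, a minimum mean of 10 counts, a robust prior, thinning to the smallest total, offsets for length and GC content, each library left out, and other thresholds.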

Additional observations from a re-analysis of the deposited data

Results flagged for a closer look

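Within-group outliers were sought in the CPM of MAARS and each member in each group of 4 libraries, by Dixon's criterion on the gap to the nearest library. Of 114 groups examined, 2 held one, and chance alone gives about 1 in 20. Spc25, a subunit of the NDC80 complex, was at 33.1 CPM in MAARS gapmeR replicate 11, where the next library had 26.1 CPM. Smc2, the condensin ATPase, was at 81.4 CPM in control replicate 2, where the next library had 58.9 CPM. Neither gene passed the test in the full comparison.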

How the results depend on the processing

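The rise of most members kept its direction and its count under the other scalings, tests, filters and offsets that were run: between 47 and 53 members were called higher, and the median log2 fold change was 0.81 to 0.88. Over the same settings, 10.9% (no filter) to 27.8% (upper-quartile factors) of all genes tested were called higher. Leaving out each library in turn gave 45 to 54 members higher, a median of 0.69 to 1.03, and 1 member lower in every fit. Of all genes tested in these fits, 17.5% to 20.4% were called higher. The log2 fold change of MAARS (Gm14461) was -1.01 to -0.88 in those fits and -0.78 with offsets for length and GC content. Thresholds moved the counts most. At an unadjusted p under 0.0001, 8 members were higher, and a further minimum of 1.5 on the absolute log2 fold change left 2 higher and 0 lower by edgeR, since Pttg1 falls short of it. The shares of all genes at these thresholds are not given here. Over 952 member fits, 902 kept their call and direction, 20 lost the call, 27 gained one and 3 reversed. The reversed values all belonged to the log2 fold change of Bub3, which was -0.027 with the offsets and -0.0055 to 0.040 with a library left out, below 0 without MAARS gapmeR replicate 11 or 13. Calls were lost for Cdca8, Cenph, Cenpn, Kif20b and Smc4, and gained for Cdc25b, Cenpk, Ndc80, Spc25 and Smc2, 5 of them without control replicate 2. Upper-quartile factors called 3622 of all genes higher and 2379 lower, against 2782 and 3137, and moved the median of all genes to 0.07. Of the other mitotic genes, 44 to 48 were called higher and 3 or 4 lower, and replication genes were called higher in 4 or 5 cases and lower in 7 or 8 under the other factors and tests. No paired analysis was possible because the replicate numbers of the groups, 2, 5, 6 and 7 against 9, 11, 13 and 15, are not shared.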
